A study of Mus musculus with 7 samples.

Results

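Genes that respond to temperature and to protein stress were examined in injured mouse spinal cord: the cold-inducible RNA-binding genes *Cirbp* and *Rbm3*, and the heat shock and chaperone genes *Hspa1a*, *Hspa1b*, *Hspa8*, *Hsp90aa1*, *Hsph1*, *Dnajb1*, *Hspb1* and *Hspa5*. They were chosen by name, with earlier results of these data known, as genes whose RNA can follow body-wide rhythms. They make up 10 of the 21965 genes in the count table. The table holds RNASeq of the T9 contusion epicenter on dpi 3 (days post-injury) of 3 mice with the label *Bmal1*-/-, of which 2 were female and 1 male, and of 4 WT mice, 2 of each sex. Each mouse gave 1 library. *Bmal1*, listed as *Arntl*, encodes a transcription factor at the core of the circadian clock, and the comparison addresses what its loss changes after spinal cord injury. Mice labelled *Bmal1*-/- carried the *Arntl* tm1Bra allele from the germ line, in all cells, and came from crosses of heterozygotes. The WT mice were C57BL/6 and were bought, except for 1 knockout littermate among the 4, so origin and genotype cannot be told apart for most WT mice. All 7 mice were 8 to 10 weeks old, received the same 50 kdyn contusion under tribromoethanol, and were killed at 3 to 5 h after lights-on (ZT 3–5) with ice-cold saline perfusion before a 5 mm segment was taken. There was no uninjured group, there was 1 time of day, and body temperature was not analysed here.

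CIRBP and RBM3 are small RNA-binding proteins whose transcripts go up when cells are mildly cooled and go down when they are warmed, and *Cirbp* in particular follows the daily rhythm of body temperature. Heat shock genes respond the opposite way: under heat or misfolded protein the transcription factor HSF1 binds heat shock elements, inverted repeats of GAA, and raises the inducible HSP70 genes *Hspa1a* and *Hspa1b* together with *Hsph1*, *Dnajb1*, *Hspb1* and *Hsp90aa1*. *Hspa8* is the constitutive cytosolic HSP70. *Hspa5* encodes BiP, the HSP70 of the endoplasmic reticulum (ER), and is a main target of the unfolded protein response through ER stress response elements.

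The bases before the annotated start are shown for the members that did not overlap between genotypes (*Cirbp* and *Hspa5*) and for the near-identical pair *Hspa1a* and *Hspa1b*, whose reads are hard to tell apart. RefSeq windows on GRCm38.p6 were at hand for 7 of the 10 genes, and the 250 bases before each start were searched on both strands. *Rbm3*, *Hspa8* and *Hsp90aa1* had no window at hand and were not searched for any element. Capitals mark the mild cold response element TCCCCGCC and the CCAAT box in *Cirbp*, the CCAAT box and the ER stress response element (CCAAT, 9 bases of any kind, CCACG, which contains a CCAAT box) in *Hspa5*, and the paired heat shock element units (GAANNTTC or TTCNNGAA) and CCAAT box in *Hspa1a* and *Hspa1b*. The *Cirbp* and *Hspa5* windows stop where a GENCODE exon begins, and the *Hspa5* element, which lies within that first exon, is shown by itself. The starts are those of RefSeq, and the *Cirbp* window lies inside the span of the GENCODE gene (chromosome 10, 80165985 to 80172786), not before it.
Cirbp, chr10:80167589-80167777, + strand: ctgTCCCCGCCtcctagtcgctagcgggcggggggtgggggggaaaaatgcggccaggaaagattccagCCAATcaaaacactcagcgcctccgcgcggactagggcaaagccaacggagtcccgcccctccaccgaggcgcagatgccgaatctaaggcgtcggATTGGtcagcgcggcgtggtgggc
Hspa5, chr2:34771840-34771969, + strand: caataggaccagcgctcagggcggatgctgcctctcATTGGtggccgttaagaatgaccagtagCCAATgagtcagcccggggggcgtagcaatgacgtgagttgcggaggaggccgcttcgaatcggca
Hspa5 element, chr2:34772020-34772048, + strand: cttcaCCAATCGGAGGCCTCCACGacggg
Hspa1a, chr17:34972157-34972406, − strand: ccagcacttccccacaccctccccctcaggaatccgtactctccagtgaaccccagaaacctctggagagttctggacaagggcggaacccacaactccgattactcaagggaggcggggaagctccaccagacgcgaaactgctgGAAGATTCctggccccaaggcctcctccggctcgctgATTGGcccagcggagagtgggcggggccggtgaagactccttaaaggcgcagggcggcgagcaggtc
Hspa1b, chr17:34959239-34959488, − strand: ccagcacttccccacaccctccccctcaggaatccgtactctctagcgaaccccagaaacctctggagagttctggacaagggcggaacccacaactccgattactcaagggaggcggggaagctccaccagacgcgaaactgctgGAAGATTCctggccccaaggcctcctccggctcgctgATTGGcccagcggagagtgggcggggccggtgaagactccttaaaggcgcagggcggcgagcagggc

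Of the 250 bases shown, *Hspa1a* and *Hspa1b* share 247 and differ at 3. Their heat shock element pair begins 104 bases before the start in both. A pair was also found in *Hsph1*, 33 bases before one annotated start, and in *Hspb1*, at 117 and 97 bases, and 12.8% of all 32851 windows of this length hold one. The cold response letters begin 247 bases before the *Cirbp* start, and are also found, on the other strand, 137 bases before the starts of *Hspa1a* and *Hspa1b*, against 4.64% of all windows. The ER element begins 65 bases before the *Hspa5* start, and 0.113% of all windows hold it. A CCAAT box, printed as ATTGG where it lies on the other strand, is in 33.8% of all windows. The E-box CACGTG, the sequence that BMAL1 and its partner CLOCK bind, was found only in *Hsph1* among the 7 genes, 19 bases before its second annotated start, against 6.02% of all windows. A match in letters is not evidence of binding.

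Libraries held 38529644 to 44096737 counted reads. *Arntl*, the targeted gene, was 24.1, 24.2 and 22.5 CPM (counts scaled by library size and TMM factor) in the libraries labelled *Bmal1*-/- and at 14.7, 15.3, 11.9 and 13.4 CPM in WT. The targeted gene thus went against its label, with a log2 fold change of 0.77 (SE 0.10, adjusted p = 0.0155, edgeR), and the count spans all its exons, not the deleted part alone. The edgeR call of *Arntl* was lost without WT replicate 4 (adjusted p = 0.0554) or any 1 of *Bmal1*-/- replicates 1, 2 and 3 (0.102, 0.052 and 0.060), where the log2 fold change stayed at 0.76 to 0.80. WT replicate 3 stood apart: its 6 neuronal markers summed to 2022.4 CPM against 3598.1 to 5894.7 in the other 6 libraries, its 6 macrophage markers to 3906.2 CPM against 2029.8 to 2874.7, and its 6 red cell markers to 466.4 CPM against 27.1 to 172.9. Between genotypes, all 8 skeletal muscle markers were lower in the libraries labelled *Bmal1*-/- without overlap, summing to 6.3 to 8.4 CPM against 52.0 to 70.4 CPM in WT, and 7 of them passed the test. All 6 Schwann cell and all 6 red cell markers were also lower without overlap. The neuronal sum was higher without overlap, at 4944.9 to 5894.7 CPM against 2022.4 to 4894.8 CPM in WT, and none of its 6 markers passed. By gene, 2 of the 6 did not overlap, *Snap25* and *Nefm* (33.3%, against 26.9% of all tested genes), while the others overlapped. The median log2 fold change of the 6 neuronal markers was 0.38, and 0.15 without WT replicate 3. In bulk tissue, fewer cells of a type and less RNA per cell cannot be told apart.

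No member passed the test between genotypes. Adjusted p (quasi-likelihood test of edgeR, adjusted by Benjamini-Hochberg over 15743 tested genes) ran from 0.172 for *Cirbp* to 0.891 for *Hspa8*, where 1.57% of all tested genes were called at 0.05. DESeq2 and limma-voom called none of the members either. All 10 members passed the filter on low counts, and the lowest count of any in a library was 124, for *Hspa1b*. In 2 of the 10, *Cirbp* (higher) and *Hspa5* (lower), the genotypes did not overlap, against 26.9% of all tested genes, so that share is near the background. 1 member, *Cirbp*, had an unadjusted p under 0.05, against 20.9% of all tested genes. The log2 fold change was above 0 in 4 members and below 0 in 6, against 51.1% of all tested genes below 0. Its median was -0.12 over the members and -0.006 over all tested genes, and its median size regardless of sign was 0.24 and 0.18.

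**Figure D1:**
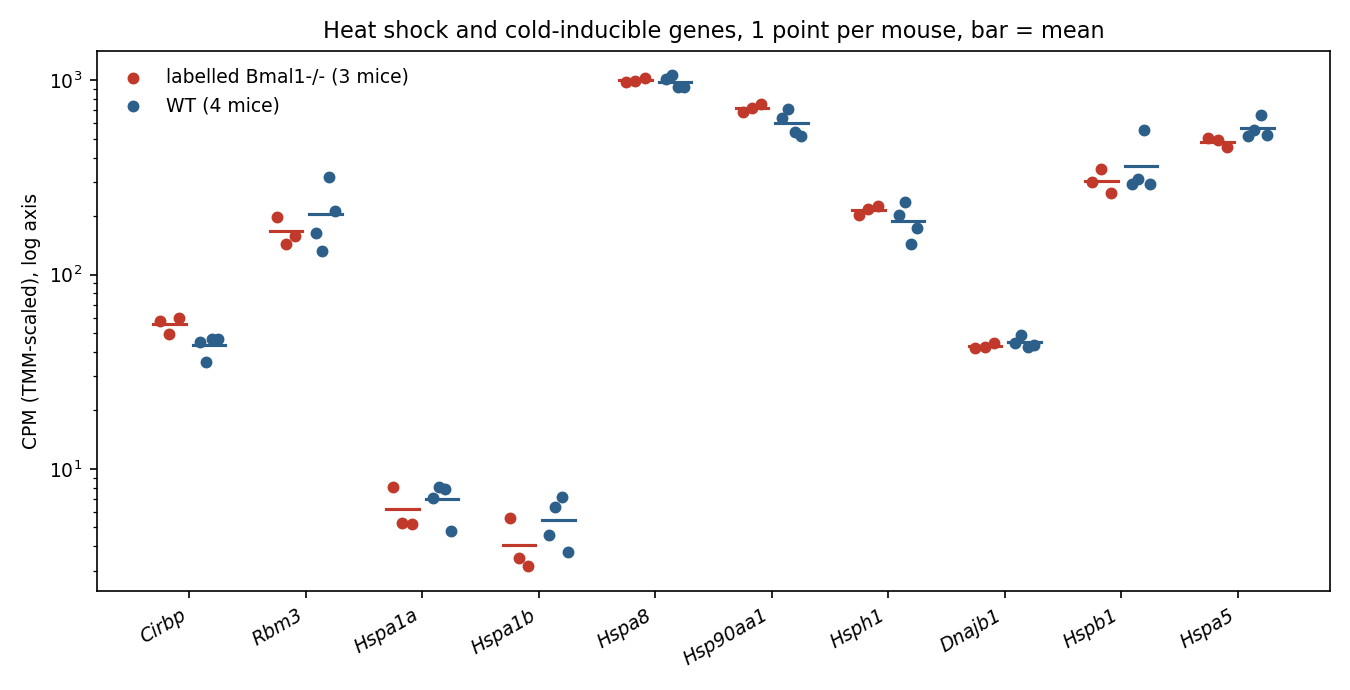
CPM after TMM scaling (vertical log axis) of the 10 genes, 1 point per mouse for the 3 mice labelled Bmal1-/- (red) and 4 WT mice (blue), with a bar at each mean. The red and blue points are apart only for Cirbp, where all 3 red points (49.3 to 59.7 CPM) lie above the blue (35.4 to 46.8), and for Hspa5, where all 3 red points (451 to 504) lie below the blue (516 to 664).

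*Cirbp* (ENSMUSG00000045193, chromosome 10, 80165985 to 80172786), whose protein binds and steadies RNAs in the cold, was 57.5, 49.3 and 59.7 CPM in the libraries labelled *Bmal1*-/-. The WT libraries held it at 44.8, 35.4, 46.8 and 46.5 CPM. Every library labelled *Bmal1*-/- was above every WT library, although only 2.5 CPM parts *Bmal1*-/- replicate 2 from WT replicate 3. Mean levels were 55.5 ± 5.53 CPM (SD, n = 3) against 43.4 ± 5.40 CPM (SD, n = 4), a fold of 1.28 with a 95% interval of 1.06 to 1.55. Its log2 fold change of 0.36 (SE 0.12, unadjusted p = 0.0175) did not pass after adjustment over all genes. With each library left out in turn the log2 fold change was 0.26 to 0.44, and the lowest adjusted p among the 15 other ways of fitting was 0.0823, with DESeq2.

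*Rbm3* (ENSMUSG00000031167, chromosome X, 8138975 to 8145880), the paralog with a like cold response, did not share this order. It was 199, 143 and 158 CPM in the libraries labelled *Bmal1*-/- and at 163, 132, 317 and 212 CPM in WT. WT replicate 3 was the highest of the 7 and WT replicate 2 the lowest, so the WT libraries enclosed the others. The log2 fold change was -0.31 (SE 0.29, adjusted p = 0.521, edgeR), with a 95% interval from -0.99 to 0.37. Without WT replicate 2 it was -0.48. Without WT replicate 3 it was -0.02, with a WT mean of 169 ± 39.9 CPM (SD, n = 3) against 167 ± 28.8 (SD, n = 3). The spread of *Rbm3* within WT, 2.39-fold from lowest to highest, was larger than that of *Cirbp* (1.32-fold), and the interval of *Rbm3* holds the *Cirbp* estimate of 0.36. The ratio of *Cirbp* to *Rbm3* CPM, chosen after its values were seen and not tested, was 0.29, 0.344 and 0.378 in the libraries labelled *Bmal1*-/- and 0.274, 0.267, 0.148 and 0.22 in WT. That ratio did not overlap between genotypes, and WT replicate 1 was 0.015 below *Bmal1*-/- replicate 1.

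**Figure D2:**
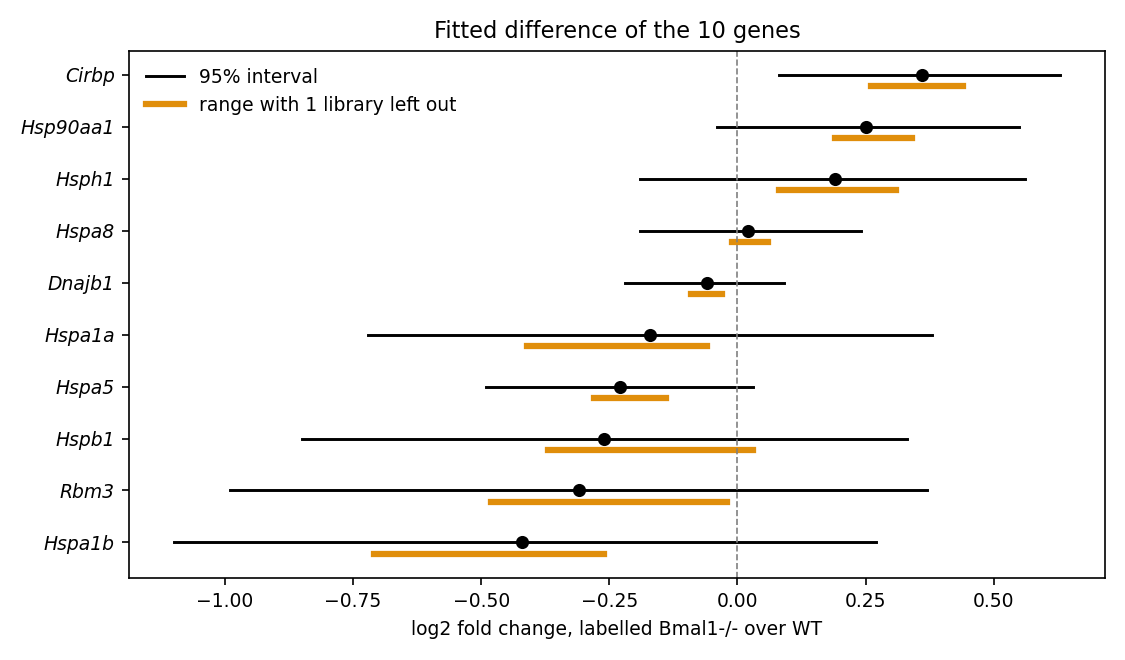
Log2 fold change (libraries labelled Bmal1-/- over WT, horizontal axis) of the 10 genes, as points with 95% intervals from edgeR (black lines) and the range when each library was left out in turn (orange bars). Only the Cirbp interval (0.08 to 0.63) lies clear of 0 before adjustment over all genes, and the Hspb1 range with 1 library left out reaches 0.03, across 0.

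Among the inducible cytosolic HSP70 genes, *Hspa1a* (ENSMUSG00000091971, chromosome 17, 34969190 to 34972156) was 8.11, 5.27 and 5.23 CPM in the libraries labelled *Bmal1*-/- and at 7.09, 8.07, 7.86 and 4.82 CPM in WT. *Hspa1b* (ENSMUSG00000090877, chromosome 17, 34956436 to 34959238) was 5.62, 3.48 and 3.15 CPM and, in WT, 4.57, 6.35, 7.14 and 3.73 CPM. Both were the least abundant of the members, and in both *Bmal1*-/- replicate 1 and WT replicates 2 and 3 were high, while WT replicate 4 was the lowest of WT. The log2 fold changes were -0.17 (SE 0.23, adjusted p = 0.670, edgeR) and -0.42 (SE 0.29, adjusted p = 0.403, edgeR). With each library left out they ran from -0.41 (without *Bmal1*-/- replicate 1) to -0.06 (without *Bmal1*-/- replicate 2 or 3), and from -0.71 (without *Bmal1*-/- replicate 1) to -0.26 (without *Bmal1*-/- replicate 3 or WT replicate 3). The genes lie about 9.95 kb apart, and 61.7% of the 75-base windows of the *Hspa1a* transcript and 55.8% of those of *Hspa1b* also occur in other genes' transcripts, each other's among them. *Hspa1a* also shares 564 exonic bases (19.0%) with *Gm20481* on the opposite strand. The split of reads between the pair is therefore uncertain, and their sum was 13.7, 8.75 and 8.37 CPM against 11.7, 14.4, 15 and 8.55 CPM, which overlaps.

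*Hspa8* (ENSMUSG00000015656, chromosome 9, 40800984 to 40810087), the constitutive HSP70 that also uncoats clathrin vesicles, was the member with the most reads. It was 981, 990.3 and 1021 CPM in the libraries labelled *Bmal1*-/- and at 1016, 1060, 923 and 927 CPM in WT. The spread was narrow, 1.15-fold in WT, and the genotypes overlapped. Its log2 fold change was 0.02 with a 95% interval from -0.19 to 0.24, that is 0.876- to 1.18-fold, and its sign changed with the scaling. Of its 75-base windows 41.3% occur in other genes' transcripts too.

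*Dnajb1* (ENSMUSG00000005483, chromosome 8, 83608193 to 83612653) encodes HSP40, the J-domain partner that loads clients onto HSP70. Its values were 41.7, 42.4 and 44.5 CPM in the libraries labelled *Bmal1*-/- and 44.4, 48.7, 42.6 and 43.4 CPM in WT. All 7 libraries lay within a narrow band, and WT replicate 2 was highest. The log2 fold change was -0.06 (SE 0.07, adjusted p = 0.556, edgeR), and its 95% interval from -0.22 to 0.09 was the narrowest of the 10.

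*Hsph1* (ENSMUSG00000029657, chromosome 5, 149614287 to 149636376) encodes HSP110, the exchange factor that resets HSP70. It was 204, 217 and 226 CPM in the libraries labelled *Bmal1*-/- and at 202, 237, 144 and 173 CPM in WT. WT replicates 3 and 4 were below all others, while WT replicate 2 was the highest. The log2 fold change was 0.19 (SE 0.16, adjusted p = 0.477, edgeR), 0.08 without WT replicate 3 and 0.31 without WT replicate 2.

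*Hsp90aa1* (ENSMUSG00000021270, chromosome 12, 110690605 to 110702728), the inducible cytosolic HSP90, was 686, 716 and 757 CPM in the libraries labelled *Bmal1*-/- and at 641, 709, 544 and 518 CPM in WT. The genotypes overlapped through WT replicate 2 alone, which exceeded *Bmal1*-/- replicate 1. Mean levels were 719.6 ± 35.7 CPM (SD, n = 3) against 603 ± 88.1 CPM (SD, n = 4), and the log2 fold change was 0.25 (SE 0.13, adjusted p = 0.280, edgeR) with a 95% interval from -0.04 to 0.55. In females the values were 686 and 716 against 641 and 709 CPM, and in males 757 against 544 and 518 CPM. The male WT libraries, replicates 3 and 4, were also the lowest for *Hspa8* and *Hsph1*. They had the lowest neuronal marker sums as well (2022.4 and 3598.1 CPM), whose part in these values was not tested. The difference between the sexes was not tested, since the libraries labelled *Bmal1*-/- hold 1 male. With sex as a term the adjusted p of *Hsp90aa1* stayed above 0.05.

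*Hspb1* (ENSMUSG00000004951, chromosome 5, 135887919 to 135889563) encodes the small heat shock protein HSP25, which holds unfolded proteins and is raised in injured neurons and reactive astrocytes. It was 299.9, 349 and 262 CPM in the libraries labelled *Bmal1*-/- and at 293, 309, 556 and 292 CPM in WT. WT replicate 3 was far above the other 6 libraries, and the other 3 WT libraries lay within 16.7 CPM of each other. The log2 fold change was -0.26 (SE 0.25, adjusted p = 0.536, edgeR), and 0.03 without WT replicate 3, when the WT mean was 298 ± 9.38 CPM (SD, n = 3) against 303 ± 43.6 (SD, n = 3). That library also had the highest sums of macrophage, endothelial, red cell, oligodendrocyte and neutrophil markers and the lowest of neuronal and astrocyte markers (8735.8 CPM for astrocytes, against 9551.4 to 14860.6), and their part in its *Hspb1* level was not tested.

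*Hspa5* (ENSMUSG00000026864, chromosome 2, 34771970 to 34777547) was 504, 491 and 451 CPM in the libraries labelled *Bmal1*-/- and at 516, 557, 664 and 523 CPM in WT. All libraries labelled *Bmal1*-/- were below all WT libraries, with 504 and 516 CPM nearest to each other. Mean levels were 482 ± 27.5 CPM (SD, n = 3) against 565 ± 68.6 CPM (SD, n = 4), a fold of 0.853 with a 95% interval of 0.713 to 1.02. The log2 fold change was -0.23 (SE 0.11, unadjusted p = 0.0752, adjusted p = 0.274, edgeR). Without WT replicate 3, the highest, it was -0.14. No other annotated transcript shares a 75-base window with *Hspa5*, *Cirbp*, *Hsph1* or *Dnajb1*.

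Per length (CPM per kilobase of exon), the order of the members in WT ran from *Hspb1* (352 ± 125, SD, n = 4), *Hspa8* (228 ± 15.7) and *Hsp90aa1* (153 ± 22.4) through *Hspa5* (134 ± 16.2), *Rbm3* (43.9 ± 17.2), *Hsph1* (26.0 ± 5.48), *Cirbp* (16.7 ± 2.07) and *Dnajb1* (14 ± 0.854) to *Hspa1a* (2.35 ± 0.502) and *Hspa1b* (1.94 ± 0.560). Over all 7 libraries the ranges of 5 neighbouring pairs overlapped: *Hsp90aa1* and *Hspa5*, *Rbm3* and *Hsph1*, *Hsph1* and *Cirbp*, *Cirbp* and *Dnajb1*, and *Hspa1a* and *Hspa1b*. The constitutive *Hspa8* thus stood about 97 times above *Hspa1a* per length in WT. The length used joins the exons of all annotated transcripts of a gene. For *Cirbp* that is 2604 bases, against 1321 in its longest transcript. The order, the overlaps and the ratio depend on this choice. Levels of genes with many shared windows (*Hspa1a*, *Hspa1b*, *Hspa8*, *Hsp90aa1* and *Hspb1*, at 41.3% to 61.7%) depend on how the counting treated reads with several matches, which is not given in the sources used here.

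**Figure D3:**
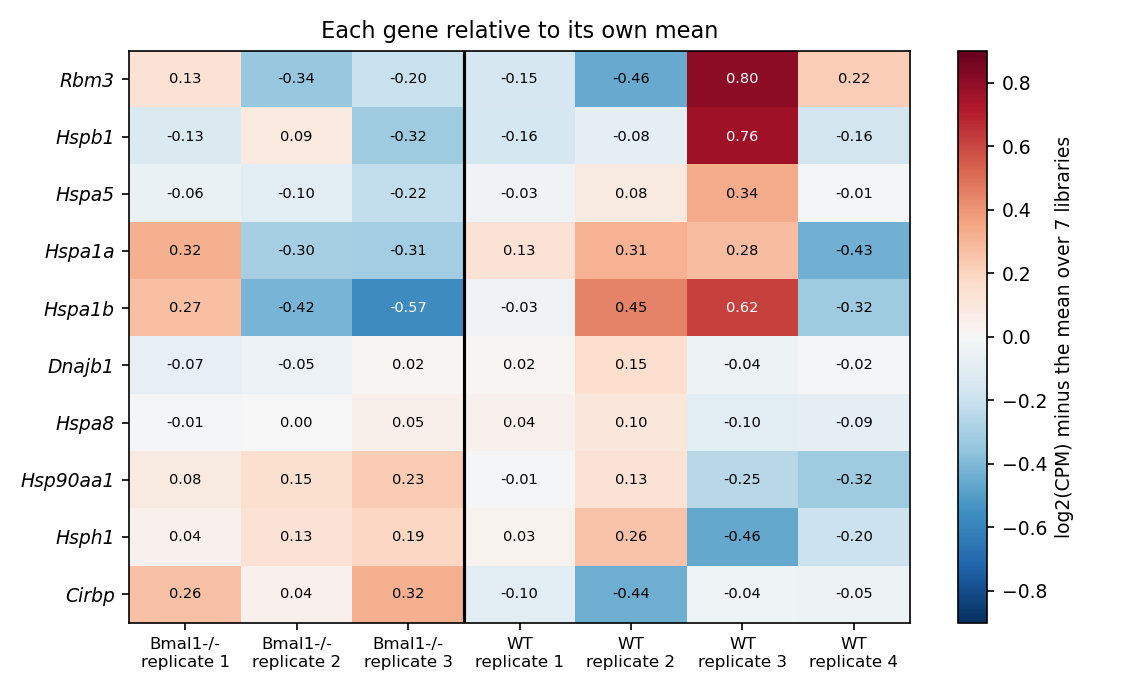
Log2 CPM of each gene minus its own mean over the 7 libraries (color scale and cell labels), with the 3 libraries labelled Bmal1-/- left of the black line and the 4 WT libraries right of it. WT replicate 3 holds the highest value of Rbm3 (0.80), Hspb1 (0.76), Hspa5 (0.34) and Hspa1b (0.62) and the lowest of Hsph1 (-0.46) and Hspa8 (-0.10), while Cirbp is near its mean there (-0.04).

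The members did not move as 1 group across the libraries. WT replicate 3 was above all other libraries for 4 members (*Rbm3*, *Hspb1*, *Hspa5* and *Hspa1b*), below all others for 2 (*Hspa8* and *Hsph1*) and within their range for the other 4. Among the heat shock genes, *Hspb1* and *Hspa1b* were thus high and *Hsph1* low in the same library. As descriptions over 7 libraries, which share the outlying WT replicate 3, the tested genes whose log2 CPM was most like that of a member (highest Pearson's r) included 2 other chaperone genes. *Hsp90b1*, the HSP90 of the ER, was the most alike to *Hspa5* (r = 0.998), and *Stip1*, the adaptor that links HSP70 to HSP90, was the most alike to *Hsph1* (r = 0.992). *Hsp90b1* was 578, 568 and 516 CPM in the libraries labelled *Bmal1*-/- and at 584, 638, 774 and 606 CPM in WT, and like *Hspa5* it did not overlap between genotypes and did not pass (log2 fold change -0.23, adjusted p = 0.291, edgeR).
The next most alike to *Hsph1* was *Tpgs2* (r = 0.991). For *Rbm3* they were *Nlrc3* (r = 0.994) and *Chchd1* (r = 0.991), for *Hspb1* *Gorasp2* (r = 0.993) and *Brix1* (r = 0.990), for *Hspa8* *Pcbd1* (r = 0.989) and *Dhx29* (r = 0.987), and for *Hsp90aa1* *Wdr24* (r = 0.987) and *Stab2* (r = 0.982). The likest genes were *Mfsd3* (r = 0.970) and *Acbd7* (r = 0.955) for *Cirbp*, *Yod1* (r = 0.980) and *Gm28729* (r = 0.941) for *Dnajb1*, *Cdcp1* (r = 0.975) and *Ywhaz* (r = 0.963) for *Hspa1a*, and *1700021F05Rik* (r = 0.983) and *Impg2* (r = 0.982) for *Hspa1b*. These are the highest r of 15743 tested genes, and were not tested. Some had few reads: *Acbd7* (0.18 to 0.482 CPM), *Cdcp1* (0.227 to 0.308), *Gm28729* (0.418 to 1.05) and *Stab2* (0.403 to 0.837). Among members, *Hspa1a* and *Hspa1b* had r = 0.91 (0.93 without WT replicate 3), and share sequence as given above. *Hsph1* had r = 0.91 with *Hspa8* and 0.89 with *Hsp90aa1* (0.92 for both without WT replicate 3). *Hspa8* and *Hsp90aa1* had r = 0.84 (0.77 without it). *Rbm3* ran opposite to *Hsph1*, at r = -0.96 (-0.87 without it). *Hspb1* and *Hspa5* had r = 0.87, but 0.39 without that library. These pairs were not tested.

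Beyond the 10 members, 107 tested genes in 9 lists of chaperones, their regulators and stress genes were read in the same fit. The lists were likewise chosen with earlier results of these data known. With edgeR 1 passed, the immediate early gene *Egr2*, and none of the 93 genes outside the immediate early list did. DESeq2 called 6, which were *Egr2*, *Ier3*, *Dnajc7*, *Hspb2*, *Sdf2l1* and *Pdia6*. Calls named in the following lists are those of edgeR unless DESeq2 is named. Of the 107, 18 had an unadjusted p under 0.05 (16.8%, against 20.9% of all tested genes) and 31 did not overlap (29.0%, against 26.9%), both near the background.

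The other HSP70, HSP110 and HSP90 genes, 10 tested, had 0.01 as their median log2 fold change, 7 above 0 and 3 below, with none called and 2 not overlapping (20.0%, against 26.9% of all tested genes). Lowest in p were *Hspa12b*, an HSP70 relative of endothelial cells (-0.43, adjusted p = 0.153), *Hspa14* (-0.19, adjusted p = 0.290) and the testis and brain HSP70 *Hspa2* (0.16, adjusted p = 0.295). *Hspa12b* was at 14.7, 13.9 and 12.9 CPM against 17.1, 16.7, 23.1 and 17.6 CPM in WT. The 6 endothelial markers summed to 336.7 to 387.4 CPM against 399.8 to 654.5 CPM in WT, likewise without overlap. By gene, 3 of the 6 did not overlap (50.0%, against 26.9%), and only *Cdh5* passed. The median of these markers was -0.52, and -0.28 without WT replicate 3, and their part in *Hspa12b* was not tested.

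Of 15 J-domain genes, 13 were above 0 and 2 below, with a median log2 fold change of 0.08, none called with edgeR and 4 not overlapping (26.7%, against 26.9% of all genes). *Dnajc7*, a partner of HSP70 and HSP90, was at 163, 161 and 171 CPM against 144, 154, 149 and 147 CPM in WT, a log2 fold change of 0.15 (adjusted p = 0.195, edgeR), and DESeq2 called it (0.16, adjusted p = 0.0341). *Dnajb4* (0.18, adjusted p = 0.197) and *Dnajb14* (0.21, adjusted p = 0.239) were next in order of p.

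The small heat shock genes had a median of -0.12 over 6 tested, 1 above 0 and 5 below, and none was called with edgeR. *Hspb2*, known from muscle, was at 0.915, 1.44 and 0.761 CPM against 1.81, 2.31, 2.02 and 1.46 CPM in WT, without overlap (log2 fold change -0.87, adjusted p = 0.157, edgeR), and DESeq2 called it (-0.86, adjusted p = 0.0491). *Hspb3*, also a muscle gene, was at -0.47 (adjusted p = 0.300) and *Hspb8* at -0.09 (adjusted p = 0.718). The skeletal muscle markers given above moved the same way as *Hspb2*, and their part in it was not tested.

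The chaperonins had a median of -0.03 over 9 tested of 10, with none called (1.57% of all tested genes were) and none without overlap (against 26.9%). *Cct4* (-0.09, adjusted p = 0.371), *Hspe1* (-0.15, adjusted p = 0.380) and *Hspd1* (-0.10, adjusted p = 0.403) were lowest in p. The 17 co-chaperones had a median of 0.00, 9 above 0 and 8 below, with none called. Of these, 1 was without overlap (5.88%, against 26.9% of all tested genes), *Bag1* (-0.22, adjusted p = 0.274). *Ptges3*, the HSP90 co-chaperone p23, was at -0.21 (adjusted p = 0.293) and *Bag4* at 0.26 (adjusted p = 0.329).

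Of the heat shock factors and their regulators, 0 of 4 passed, and the list's median was 0.04. *Hsf1*, the factor that drives the heat shock response, was at 31.3, 33.3 and 32.3 CPM against 36.0, 35.1, 33.7 and 34.1 CPM, lower without overlap by a log2 fold change of -0.10 (adjusted p = 0.317). *Hsf4* (0.37, adjusted p = 0.344) did not overlap either, with 7.99 CPM in WT replicate 3 as its lowest value, and *Hsf2* was at 0.07 (adjusted p = 0.473).

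**Figure D4:**
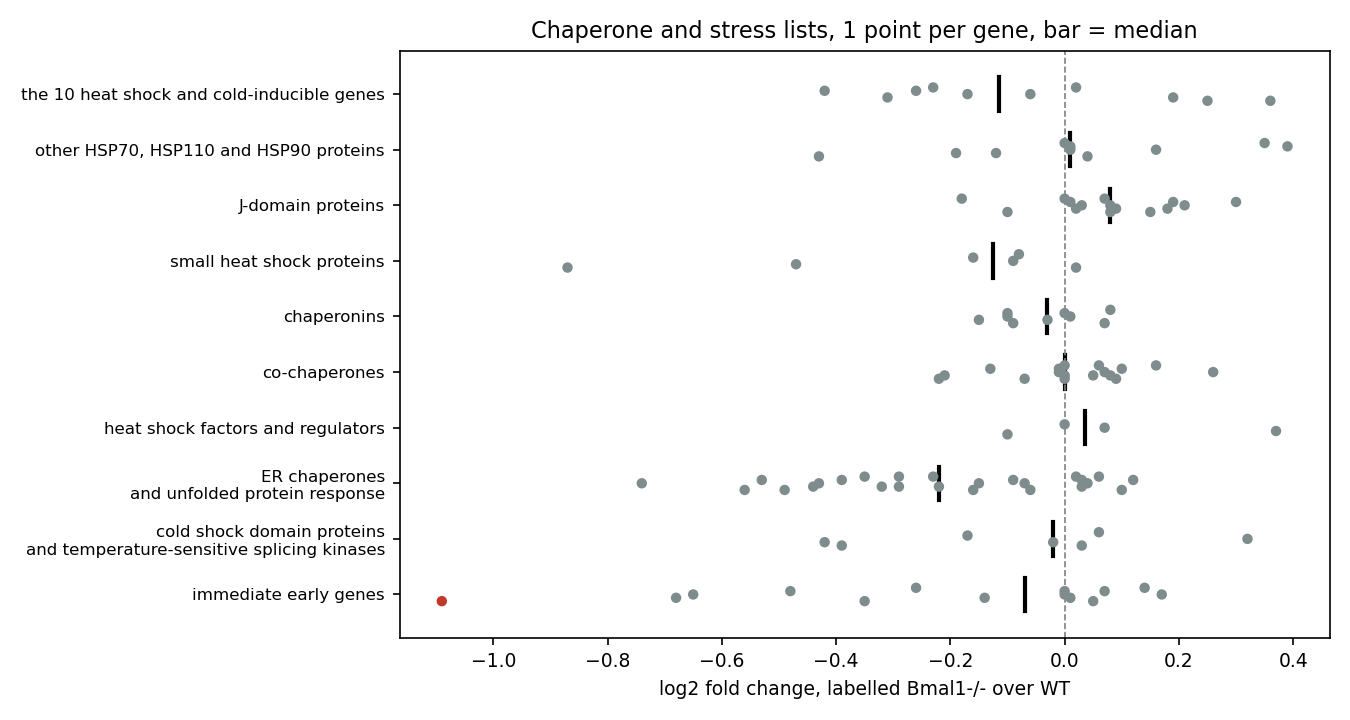
Log2 fold change (libraries labelled Bmal1-/- over WT, horizontal axis) of each tested gene in the 10-gene set and in 9 lists, with a black bar at each median, red for genes past adjusted p 0.05 and grey for the rest. Only Egr2 (-1.09) is red, and the ER list lies furthest from 0 by its median (-0.22).

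The ER chaperone and unfolded protein response list lay furthest from 0. Its median was -0.22 over 25 tested, 7 above 0 and 18 below, none was called with edgeR (1.57% of all tested genes were), 9 had an unadjusted p under 0.05 (36.0%, against 20.9% of all tested genes) and 14 did not overlap (56.0%, against 26.9%), 12 of them lower. *Sdf2l1*, an ER partner of BiP, was at 35.9, 30.8 and 28.8 CPM against 40.0, 39.5, 56.1 and 43.9 CPM, a log2 fold change of -0.49 (SE 0.14, adjusted p = 0.140). The disulfide isomerase *Pdia6* was at 201, 194 and 165 CPM against 229, 235, 314 and 233 CPM, at -0.44 (SE 0.14, adjusted p = 0.157), and *Dnajb11*, the J-domain partner of BiP, was at -0.43 (SE 0.15, adjusted p = 0.190). In all of these, WT replicate 3 was the highest library and *Bmal1*-/- replicate 3 the lowest, as for *Hspa5*. The list summed to 4321.0, 4234.3 and 3850.4 CPM in the libraries labelled *Bmal1*-/- and to 4515.9, 4632.6, 5689.8 and 4570.4 CPM in WT, without overlap. Without WT replicate 3 its median was -0.13. The endothelial, Schwann cell, muscle and red cell sums were lower and the neuronal sum higher in the libraries labelled *Bmal1*-/-, and their part in these values was not tested. With DESeq2, *Sdf2l1* (adjusted p = 0.0362) and *Pdia6* (adjusted p = 0.0470) passed.

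**Figure D5:**
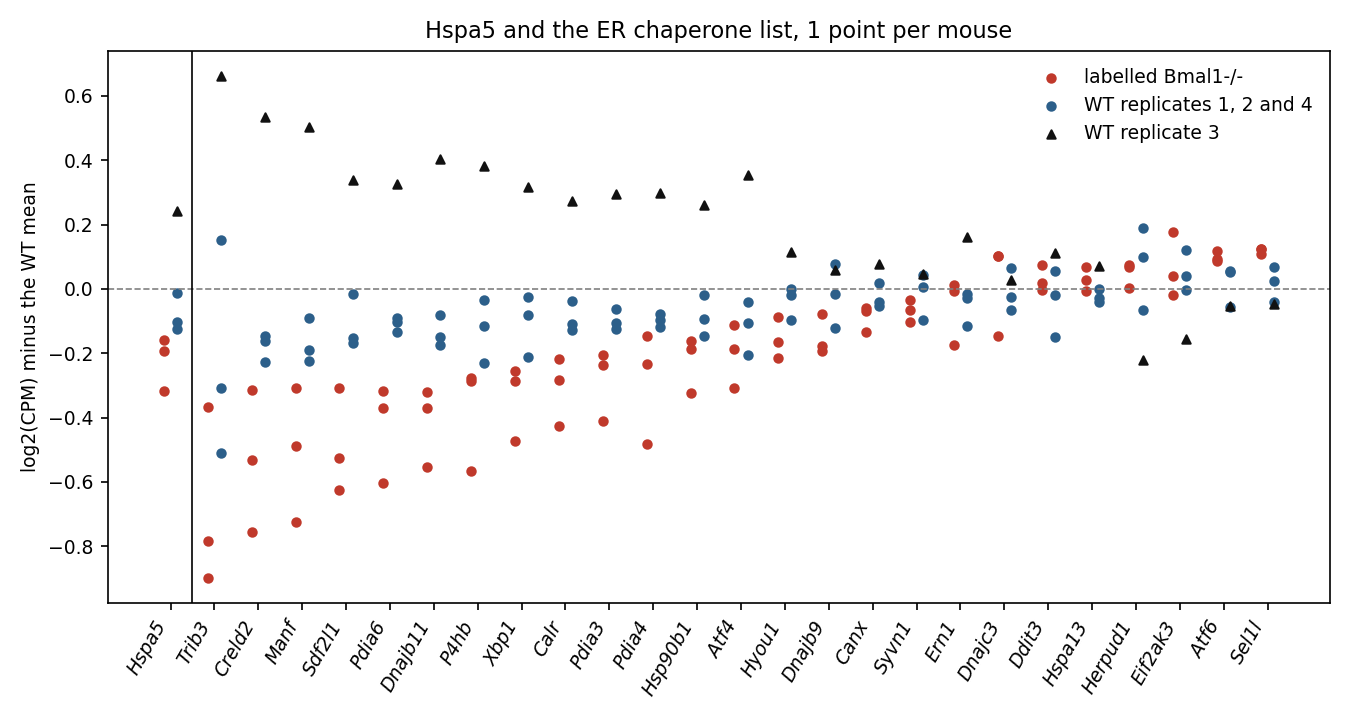
Log2 CPM minus the WT mean of log2 CPM (vertical axis) of Hspa5, left of the black line, and of the 25 genes of the ER list, 1 point per mouse: libraries labelled Bmal1-/- in red, WT replicates 1, 2 and 4 in blue and WT replicate 3 as a black triangle. For Hspa5 and 12 genes of the list the red points lie below all WT points, and the triangle is the highest WT point of each of these.

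The cold shock domain genes and the splicing kinases *Clk1* and *Clk4*, whose activity changes with body temperature, had a median of -0.02 over 7 tested, 3 above 0 and 4 below, and none was called. *Ybx3* was at -0.39 (adjusted p = 0.255) and *Ybx1*, a broad mRNA-binding protein, at -0.42 (adjusted p = 0.260), both lower without overlap, while *Csdc2* was at 0.32 (adjusted p = 0.316), higher without overlap. WT replicate 3 was the highest library for *Ybx1* and *Ybx3* and the lowest for *Csdc2*.

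Among 14 immediate early genes, the median was -0.07, with 7 above 0 and 7 below. *Egr2* fell, from 6.33, 6.71, 6.69 and 5.75 CPM in WT to 2.80, 3.53 and 2.66 CPM in the libraries labelled *Bmal1*-/- (log2 fold change -1.09, SE 0.14, adjusted p = 0.0155, edgeR). Its call was lost without *Bmal1*-/- replicate 1 (adjusted p = 0.109), *Bmal1*-/- replicate 3 (0.0797) or WT replicate 1 (0.0580), with log2 fold changes of -1.04, -1.01 and -1.09. *Egr2* is also a defining gene of myelinating Schwann cells and stands in that marker list, whose 6 genes were all lower without overlap. *Ier3* (-0.68, adjusted p = 0.161) and *Ier2* (-0.65, adjusted p = 0.210) were lower without overlap and did not pass with edgeR, while DESeq2 called *Ier3* (adjusted p = 0.0440).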

How the data were processed

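Stranded poly-A libraries were sequenced by the authors, who used Tophat2 for alignment (GRCm38) and HTSeq 0.10.0 for counting. The deposited values are raw counts per gene, and the annotation release and strand setting are not given in the sources used here. IDs were matched to GENCODE M21 (21939 of 21965). Counts were filtered with filterByExpr on genotype, scaled by TMM and tested with edgeR 4.0.16 (limma 3.58.1, R 4.3.3) on genotype over 7 libraries, and adjusted over all 15743 tested genes at 0.05. Standard errors came from the quasi-likelihood F statistic. Promoters came from RefSeq windows. The fit was tested on simulated data. Alternatives were 2 low count filters, RLE and upper-quartile scaling, DESeq2 1.42.0, limma-voom, sex, a replicate block and each library left out. The genes named are all members, the genes past the threshold or lowest in p (up to 3) of each list, and the 2 genes most like each member, of which 1 is not reported here. The members and lists were chosen with earlier results of these data known. Figures were drawn with matplotlib 3.10.9.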

Additional observations from a re-analysis of the deposited data

Results flagged for a closer look

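In WT, *Hspb1* was at 556 CPM in replicate 3 against 292 to 309 CPM in the other 3 libraries. The gap was 0.937 of the WT range, above Dixon's 95% critical value for 4 samples. 11 genes (the members and *Arntl*) were examined in this way, and chance gives about 1 such value in 20 groups. The libraries labelled *Bmal1*-/-, 3 in number, are too few for this rule. The high level in 1 WT library moved with its marker sums as given above, and their part in it was not tested.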

How the results depend on the processing

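The count of members called was 0 under the main settings and all 15 alternatives, and of 150 member values 145 kept their direction and side of the threshold. The reversals were small: *Hspa8*, at 0.02, was near 0 with upper-quartile scaling (-0.00), the replicate block (-0.00), without WT replicate 3 (-0.01) and without WT replicate 4 (-0.00), and *Hspb1* was at 0.03 without WT replicate 3. With a library left out *Hspa8* ran from -0.01 to 0.06 and *Hspb1* from -0.37 to 0.03. All genes called numbered 247, and 1495 with DESeq2 (573 higher, 922 lower), 0 with the replicate block (1582 at an unadjusted p under 0.05) and 57 to 730 with a library left out, the 730 without WT replicate 3. Called list genes numbered 1, and 6 with DESeq2, 0 with the replicate block and 0 to 2 with a library left out (*Ier3* beside *Egr2* without WT replicate 3, and none without *Bmal1*-/- replicates 1 or 3 or WT replicate 1). The *Arntl* log2 fold change was 0.77 with the replicate block, where its adjusted p was 0.226, and 0.71 to 0.82 with a library left out, and its call was lost without WT replicate 4 and without any of *Bmal1*-/- replicates 1 to 3 (adjusted p = 0.052 to 0.102). The cause of these changes was not tested. Replicate numbers did not pair the samples: deviations of same-numbered libraries had r = -0.174, 0.183 and -0.295. None of the 135 list medians moved by more than the spread between replicates, but some changed sign. With a library left out, the median of the small heat shock genes ran from -0.24 to 0.02. That of the cold shock and splicing kinase list ran from -0.10 to 0.02, and that of the ER list from -0.26 to -0.13. The widest interval was that of *Hspa1b* (-1.10 to 0.27), the member with the lowest counts (124 to 286 reads per library). That of *Rbm3* was nearly as wide (-0.99 to 0.37), with 5152 to 12693 reads per library. Counting error and spread between mice were not separated.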
